A study of Mus musculus with 45 samples.

Results

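Islets of Langerhans, the endocrine cell clusters of the pancreas, were compared between NZO/HlLtJ and C57BL/6J mice that received the control diet, with 10% fat and added fiber. The comparison took 15 of the 45 libraries of the series, namely all libraries of these strains whose label gives 10% fat, and every gene of the deposited count table. NZO/HlLtJ gave 7 libraries, from 4 female and 3 male samples, and C57BL/6J gave 8, from 4 female and 4 male samples. Sex, taken from the F or M in the sample title, was a blocking factor. In both groups the diet began at 6 weeks of age and islets were collected at 16 weeks. The labels name no transgene, deletion or drug for any group, and whether mice were pooled or shared between libraries is left unsaid, so the p-values reflect only how these samples vary. The series also holds CAST/EiJ mice and a diet with 44% fat and high sugar, whose sample titles give fiber as well. Those libraries are used below only where a value of this strain comparison is set beside them.

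Within an islet, beta cells secrete insulin and amylin, alpha cells secrete glucagon and delta cells secrete somatostatin, and a dense capillary network with pericytes and resident macrophages runs between them. NZO/HlLtJ is an inbred strain with polygenic obesity and insulin resistance in which many mice, mostly males, become diabetic. C57BL/6J is the standard laboratory strain and the source of the mouse reference genome. It carries a deletion within Nnt, the gene of a mitochondrial enzyme that makes NADPH.

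Libraries held 57.2 to 110 M estimated counts. Levels are given as CPM, the count of a gene relative to the library total, scaled with TMM composition factors, which ranged from 0.695 to 1.13. The insulin genes took 4.97% to 14.2% of the counts, so every library held islet RNA, and digestive enzyme genes of exocrine acinar cells took 2.13% to 26.8%. The acinar share was highest in C57BL/6J female replicates 4 and 3 and reached 9.91% at most in NZO/HlLtJ. Xist and the Y-linked gene Ddx3y matched the sex label in all 15 libraries. NZO/HlLtJ male replicates 2 and 3 stood apart from the other libraries by their macrophage markers, with summed levels of 232 and 393 CPM against 92.4 to 163 CPM in the other 13. Male replicate 3 also held the highest fibroblast level, at 2297 CPM. Results that these libraries move most are given with and without them.

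Of 18805 genes that passed the expression filter, 7533 differed between the strains at an adjusted p under 0.05 (40.1%; edgeR quasi-likelihood F test with sex as a block, Benjamini-Hochberg adjustment over all genes tested). NZO/HlLtJ was higher for 3947 (21%) and lower for 3586 (19.1%). The difference was at least 2-fold for 2339 genes (12.4%), and for 2554 genes (13.6%) no library of one strain overlapped the range of the other, with NZO/HlLtJ above for 6.96% and below for 6.62%. The sample codes fall into 3 series that begin with 76, 80 and 89, which the labels do not explain. Within each series alone 2419, 1688 and 4828 genes were called, from 5 libraries each and without the sex term. With the series as a factor 7206 were called. The NZO/HlLtJ libraries of series 80 were all female, and those of series 89 were male replicates 2 and 3. C57BL/6J had both sexes in each, so strain and sex were partly mixed in series 80 and 89 alone. The median log2 fold change over all tested genes, NZO/HlLtJ over C57BL/6J, was -0.00641. In the text, log2 fold changes have this direction and are followed by their standard error (SE). Each set of 3 levels is the lowest, the median and the highest library of a strain.

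The largest differences among genes of at least 5 CPM in the higher strain, with no overlap between libraries, included members of several known pathways. Mx1, an interferon-induced antiviral GTPase (chr16:97447035-97462907), stood at 17.5, 54.6 and 77.7 CPM in NZO/HlLtJ against 0.153, 0.34 and 0.628 CPM in C57BL/6J. Every NZO/HlLtJ library lay above every C57BL/6J library, and the log2 fold change was 7.05 ± 0.28, adjusted p = 5.76e-11. Its neighbour Mx2 (chr16:97535308-97560900) went the other way, at 0.0281, 0.169 and 0.792 CPM in NZO/HlLtJ against 1.24, 1.33 and 1.67 CPM in C57BL/6J, again without overlap (-2.64 ± 0.41, adjusted p = 8.99e-05). Aldh1a3, a retinaldehyde dehydrogenase known as a marker of failing beta cells, was at 24.5, 61 and 183 CPM in NZO/HlLtJ against 1.61, 2.17 and 5.42 CPM in C57BL/6J, with a log2 fold change of 4.96 ± 0.27, adjusted p = 3.17e-09. The 3 NZO/HlLtJ males were the highest libraries for this gene. Ctrc, the digestive protease chymotrypsin C (chr4:141814962-141846359), was at 325, 740 and 1607 CPM in NZO/HlLtJ against 4.15, 10.3 and 70.3 CPM in C57BL/6J (5.51 ± 0.67, adjusted p = 2.44e-05). The highest C57BL/6J value was that of female replicate 4, the library with the largest acinar share, and it was still under the lowest NZO/HlLtJ value.

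Other genes far higher in NZO/HlLtJ were Itih1, a heavy chain of the inter-alpha-trypsin inhibitor that binds hyaluronan, Cldn11, a tight junction claudin, and Tdrd6, a germ cell Tudor protein. Itih1 was at 30, 39 and 56.4 CPM in NZO/HlLtJ against 1.05, 1.57 and 1.93 CPM in C57BL/6J (4.73 ± 0.12, adjusted p = 5.93e-14). Cldn11 was at 19.6, 31.5 and 229 CPM in NZO/HlLtJ against 1.09, 1.33 and 1.57 CPM in C57BL/6J (5.26 ± 0.47, adjusted p = 1.15e-06), where the highest value was that of NZO/HlLtJ male replicate 3. For Tdrd6 the log2 fold change was 5.84 ± 0.33, adjusted p = 1.32e-09. All of these genes were free of overlap between the strains. Absence of overlap was a condition of the rule that picked the largest differences, so it is no separate result.

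Genes far lower in NZO/HlLtJ included a signalling ligand, a hormone and a vitamin receptor. Lefty1 (chr1:180935022-180938400), a secreted inhibitor of Nodal signalling, was at 0, 0.0111 and 0.0694 CPM in NZO/HlLtJ against 5.2, 5.91 and 7.05 CPM in C57BL/6J. It held 13 counts over the 7 NZO/HlLtJ libraries and 3887 over C57BL/6J, a log2 fold change of -8.09 ± 0.40, adjusted p = 2.36e-10. Ghrl, the hormone ghrelin of epsilon cells, was at 0.0339, 0.125 and 0.44 CPM in NZO/HlLtJ against 3.11, 5.79 and 13.8 CPM in C57BL/6J (-5.06 ± 0.51, adjusted p = 1.93e-06). Folr1, a folate receptor, was at 0.268, 0.508 and 1.32 CPM in NZO/HlLtJ against 18.1, 23.1 and 27.1 CPM in C57BL/6J (-5.20 ± 0.23, adjusted p = 1.19e-10). The ranges of all 3 genes lay apart, which was again a condition of that rule. Olfm3, an olfactomedin of neurons, Myo7a, an unconventional myosin, Fxyd3, a regulator of the sodium pump, and Fggy and Tceanc2, both on chromosome 4, also fell without overlap. Tceanc2 had a log2 fold change of -4.27 ± 0.11, adjusted p = 5.93e-14, with 0.637, 0.803 and 0.922 CPM in NZO/HlLtJ against 13.5, 15.4 and 17.9 CPM in C57BL/6J.

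**Figure D1:**
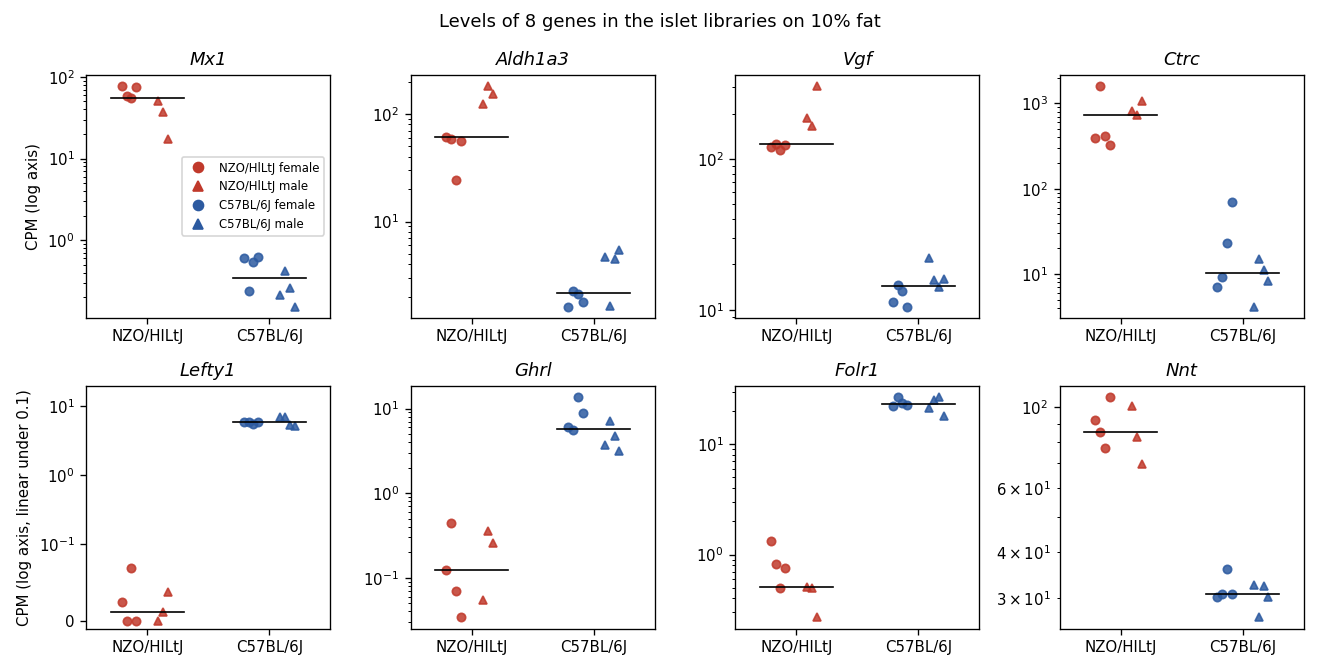
CPM of 8 genes in each of the 15 libraries on a log axis (linear under 0.1 CPM for Lefty1), with circles for females, triangles for males, and a black line at the median of each strain. In every panel the 7 NZO/HlLtJ libraries and the 8 C57BL/6J libraries occupy separate ranges, as for Mx1 at 17.5 CPM or more against 0.628 CPM or less. Separate ranges were a condition for naming part of these genes.

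Some of the largest values concern near-identical copies, whose reads a counting program can divide in different ways. The histone genes Hist2h2aa1 and Hist2h2aa2, which lie side by side on chromosome 3, moved in opposite directions: Hist2h2aa1 was at 2.37, 2.78 and 4.74 CPM in NZO/HlLtJ against 66.4, 73.5 and 83 CPM in C57BL/6J, and Hist2h2aa2 was at 42.6, 49 and 58.5 CPM in NZO/HlLtJ against 0.0113, 0.0278 and 0.149 CPM in C57BL/6J. The same uncertainty applies to the processed copies Tpm3-rs7 and Pgk1-rs7, to the alpha globin gene Hba-a1 and to the class I MHC gene H2-Q2. Their log2 fold changes were 9.58 ± 0.32, 10.32 ± 0.36, 7.89 ± 0.69 and -9.62 ± 0.15. H2-Ea-ps, the class II alpha chain gene that C57BL/6J is known not to transcribe because of a promoter deletion, had 5 counts over C57BL/6J and 11179 over NZO/HlLtJ. In total, 10 genes were under 0.1 CPM in every NZO/HlLtJ library and over 1 CPM in every C57BL/6J library, and 6 genes showed the reverse. Genes with counts of 0 in more than 22 of the 45 libraries are not in the table, so these numbers are not a census of absent genes.

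Among abundant genes, with a mean of at least 200 CPM in either strain, Scg5 and Il6st were higher in NZO/HlLtJ and Tnr and Itpr1 lower. Scg5, the chaperone 7B2 that prohormone convertase 2 needs to mature, was at 1284, 1420 and 2196 CPM in NZO/HlLtJ against 453, 565 and 609 CPM in C57BL/6J (1.49 ± 0.1, adjusted p = 7.27e-09). Il6st, the gp130 receptor chain that interleukin 6 and related cytokines share, was at 324, 479 and 518 CPM in NZO/HlLtJ against 152, 164 and 195 CPM in C57BL/6J (1.45 ± 0.088, adjusted p = 2.25e-09). Spock1, a proteoglycan, and Pxylp1, a phosphatase of proteoglycan synthesis, had log2 fold changes of 1.86 ± 0.11, adjusted p = 1.03e-09 and 2.23 ± 0.18, adjusted p = 1.12e-07. Tnr, the matrix protein tenascin R, was at 73.7, 119 and 139 CPM in NZO/HlLtJ against 250, 339 and 410 CPM in C57BL/6J (-1.57 ± 0.13, adjusted p = 1.09e-07), and Itpr1, a calcium release channel of the endoplasmic reticulum, was at 52.1, 118 and 136 CPM in NZO/HlLtJ against 202, 248 and 276 CPM in C57BL/6J (-1.42 ± 0.15, adjusted p = 2.28e-06). None of these 6 genes overlapped between the strains.

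The insulin genes themselves differed little. Ins2 did not pass the test (0.24 ± 0.14, adjusted p = 0.179), with 58430, 75020 and 96640 CPM in NZO/HlLtJ against 47200, 63340 and 70570 CPM in C57BL/6J. Ins1 passed narrowly, at 28320, 41400 and 58780 CPM in NZO/HlLtJ against 24270, 31750 and 35180 CPM in C57BL/6J (0.39 ± 0.15, adjusted p = 0.0433), and Iapp, which encodes amylin, had a log2 fold change of 0.38 ± 0.14, adjusted p = 0.0404, and both overlapped between the strains. Each of these calls was lost when libraries were scaled by totals alone, and in 11 of 15 refits that left out 1 library. Of 29 beta cell identity genes tested, 7 were higher and 10 lower, against 21% and 19.1% of all tested genes. The list had a median log2 fold change of -0.0994. Among the lower members was Isl1, a LIM homeodomain factor of all endocrine cells, at 43.1, 61.5 and 66.8 CPM in NZO/HlLtJ against 90.6, 106 and 128 CPM in C57BL/6J (-0.88 ± 0.096, adjusted p = 2.32e-06). Slc30a8, the zinc transporter that loads insulin granules, was at 268, 525 and 610 CPM in NZO/HlLtJ against 719, 812 and 964 CPM in C57BL/6J (-0.74 ± 0.14, adjusted p = 4.69e-04). The sulfonylurea receptor subunit of the ATP-sensitive potassium channel, Abcc8, was lower by a small margin without overlap (-0.28 ± 0.074, adjusted p = 0.00737), a call that was also lost with totals alone. Hnf4a, a nuclear receptor whose loss causes a monogenic diabetes, was higher, at 41.7, 54.7 and 76 CPM in NZO/HlLtJ against 23.7, 33.5 and 41.2 CPM in C57BL/6J (0.85 ± 0.14, adjusted p = 1.33e-04).

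Of 27 granule and exocytosis genes, 6 were higher and 3 lower, no larger a share than the 40.1% called over all tested genes. Vgf, a granin-like protein cut into secreted peptides, led them at 114, 126 and 305 CPM in NZO/HlLtJ against 10.5, 14.4 and 22 CPM in C57BL/6J (3.47 ± 0.15, adjusted p = 3.16e-11). All 7 NZO/HlLtJ libraries lay above the C57BL/6J range, with male replicate 3 the highest. Ion channel and calcium store genes numbered 4 higher and 10 lower of 24, with a median of -0.206. The sodium channel gene Scn9a was at 28.2, 31.8 and 35.4 CPM in NZO/HlLtJ against 63.7, 67.6 and 70.9 CPM in C57BL/6J (-1.12 ± 0.057, adjusted p = 2.99e-10), and Kcnk16, the islet potassium channel TALK-1, was higher (0.72 ± 0.09, adjusted p = 1.02e-05). G protein-coupled receptor genes numbered 3 higher and 7 lower of 23, with a median of -0.115. Their total was close to the 40.1% of all genes, which split into 21% higher and 19.1% lower. Gipr, the receptor of the incretin hormone GIP, was at 22.9, 41.4 and 57.3 CPM in NZO/HlLtJ against 57.9, 74.6 and 99.1 CPM in C57BL/6J (-0.83 ± 0.15, adjusted p = 3.43e-04), and Ffar4, a receptor of long-chain fatty acids on delta cells, had a log2 fold change of -1.02 ± 0.16, adjusted p = 1.11e-04.

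Genes of the other endocrine cells were lower in NZO/HlLtJ. In bulk RNA, fewer cells of a type and less RNA per cell cannot be told apart. Of 9 alpha cell genes, 7 were lower and 1 higher, with a median log2 fold change of -0.742, and all 4 delta cell genes were lower, with a median of -0.638. Over all tested genes 19.1% were lower and 21% higher. Glucagon, Gcg, was at 6305, 17110 and 20970 CPM in NZO/HlLtJ against 20200, 27580 and 32460 CPM in C57BL/6J (-1.02 ± 0.23, adjusted p = 0.00196), and the ranges overlapped. The homeobox factors Irx1 and Irx2, which mark alpha cells, fell without overlap, with log2 fold changes of -1.14 ± 0.21, adjusted p = 4.66e-04 and -1.15 ± 0.20, adjusted p = 2.74e-04. Gc, the vitamin D binding protein that alpha cells make, was the member that was higher, at 136, 160 and 412 CPM in NZO/HlLtJ against 74.3, 99.7 and 111 CPM in C57BL/6J (1.03 ± 0.17, adjusted p = 1.38e-04), and its highest library was NZO/HlLtJ male replicate 3. Somatostatin, Sst, was at 1043, 2225 and 2562 CPM in NZO/HlLtJ against 2425, 3040 and 4127 CPM in C57BL/6J (-0.78 ± 0.17, adjusted p = 0.00159), and Hhex, the homeobox factor of delta cells, had a log2 fold change of -0.60 ± 0.11, adjusted p = 3.11e-04. Pancreatic polypeptide, Ppy, did not pass the test (-0.50 ± 0.30, adjusted p = 0.192), while peptide YY, Pyy, was lower (-0.59 ± 0.21, adjusted p = 0.0343), a call lost with totals alone and in 7 of 15 refits without 1 library. Without NZO/HlLtJ male replicates 2 and 3, an alternative chosen after the data were seen, 6 alpha cell and 2 delta cell genes were called lower.

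**Figure D2:**
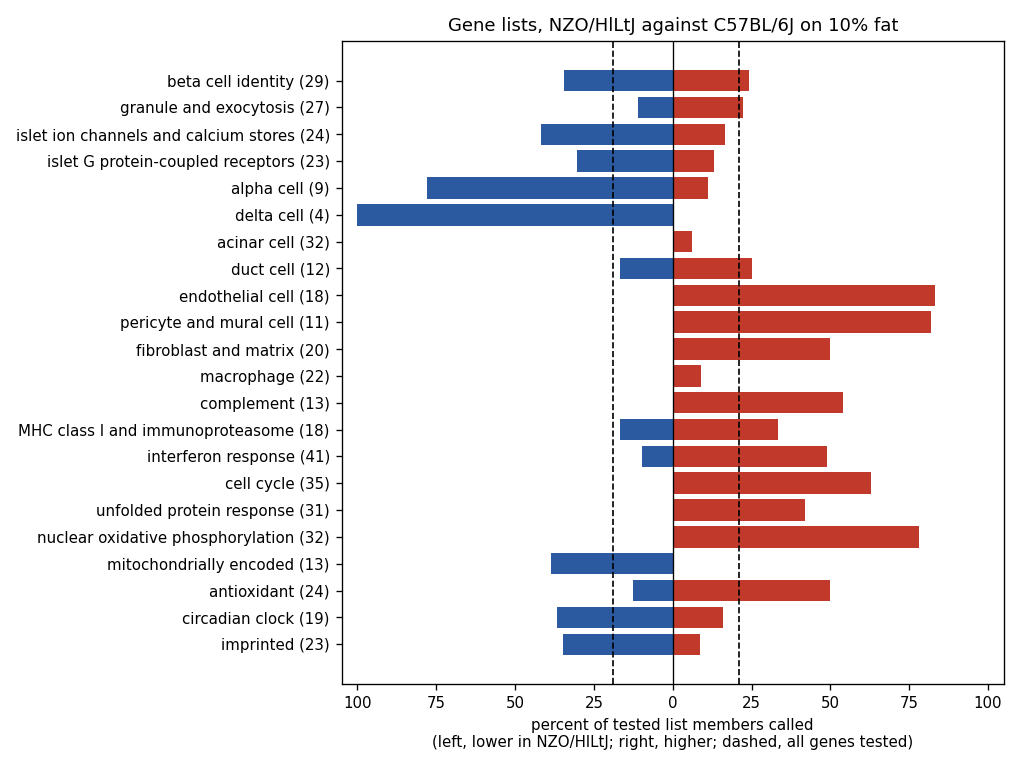
Percent of the tested members of 22 gene lists called lower (left, blue) or higher (right, red) in NZO/HlLtJ, with the number of members tested in brackets and dashed lines at 19.1% lower and 21% higher for all genes. Endothelial, pericyte and nuclear oxidative phosphorylation lists extend furthest to the right, and the delta and alpha cell lists furthest to the left.

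Vascular genes were higher in NZO/HlLtJ. Of 18 endothelial genes, 15 were higher and the others did not pass the test, with a median log2 fold change of 0.512, against 40.1% of all tested genes called in either direction. Kdr, the main VEGF receptor, was at 236, 292 and 321 CPM in NZO/HlLtJ against 136, 173 and 190 CPM in C57BL/6J (0.78 ± 0.085, adjusted p = 2.59e-06), and Plvap, the protein of capillary diaphragms, was at 199, 208 and 289 CPM in NZO/HlLtJ against 104, 136 and 151 CPM in C57BL/6J (0.74 ± 0.10, adjusted p = 3.13e-05). Neither overlapped. The summed endothelial level was 1262 to 1603 CPM in NZO/HlLtJ and 711 to 1061 CPM in C57BL/6J. Of 11 pericyte and mural cell genes, 9 were higher and the others did not pass, with a median of 1.04. Rgs5, a regulator of G protein signalling that marks pericytes, was at 362, 431 and 672 CPM in NZO/HlLtJ against 126, 157 and 184 CPM in C57BL/6J (1.56 ± 0.11, adjusted p = 1.59e-08), and Notch3, the receptor that maintains mural cells, was at 70.3, 79.4 and 118 CPM in NZO/HlLtJ against 25.9, 34 and 40.7 CPM in C57BL/6J (1.30 ± 0.12, adjusted p = 2.27e-07). The summed pericyte level was 571 to 1055 CPM against 216 to 350 CPM.

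Fibroblast and matrix genes followed with 10 of 20 higher, the others not past the test and a median of 0.872. Postn, the matrix protein periostin, was at 19.5, 28 and 69.6 CPM in NZO/HlLtJ against 4.44, 6 and 10.6 CPM in C57BL/6J (2.26 ± 0.29, adjusted p = 2.45e-05), and Fn1, fibronectin, was at 22.3, 35.7 and 73.7 CPM in NZO/HlLtJ against 3.4, 7.25 and 20.7 CPM in C57BL/6J (2.13 ± 0.43, adjusted p = 0.0014). The highest library for both was NZO/HlLtJ male replicate 3. Without that library, 14 endothelial, 6 pericyte and 9 fibroblast genes were called higher, and without male replicates 2 and 3 the counts were 12, 6 and 5. In each of these last 2 settings 1 fibroblast gene was called lower, and without both replicates 1 endothelial gene was called lower. Of 32 acinar genes, 2 passed the test, both higher, against 40.1% of all tested genes called. Of 12 duct cell genes, 3 were higher and 2 lower, close to that share. Among 11 Schwann cell genes, 3 were higher, near the 21% of all tested genes. The summed Schwann cell level overlapped, at 115 to 132 CPM against 99.9 to 137 CPM.

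**Figure D3:**
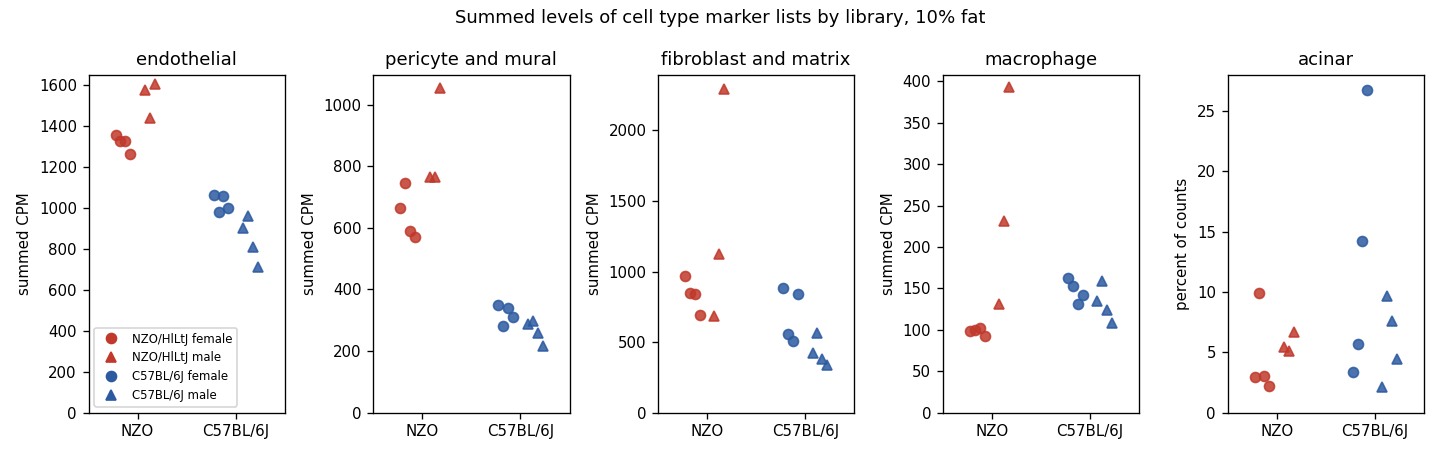
Summed CPM of 4 marker lists and the acinar share of counts in percent, by library, with circles for females and triangles for males. The endothelial and pericyte sums do not overlap between the strains, while 1 NZO/HlLtJ male reaches 393 CPM for macrophage markers and the 4 NZO/HlLtJ females stay between 92.4 and 102 CPM.

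Interferon response genes numbered 20 higher and 4 lower of 41, against 21% and 19.1% of all tested genes. The list had a median log2 fold change of 0.64. Ifi27, an interferon-induced mitochondrial protein, was at 27.4, 29 and 62.7 CPM in NZO/HlLtJ against 13.8, 16.3 and 25.6 CPM in C57BL/6J (1.12 ± 0.18, adjusted p = 2.10e-04), without overlap. Cmpk2, a mitochondrial nucleotide kinase, was lower, at 26.1, 30.6 and 31.9 CPM in NZO/HlLtJ against 35.1, 44.1 and 55.4 CPM in C57BL/6J (-0.56 ± 0.089, adjusted p = 1.14e-04). Gbp2, a guanylate-binding protein, was at 5.32, 9.85 and 46.9 CPM in NZO/HlLtJ against 3.07, 3.96 and 5.52 CPM in C57BL/6J (1.76 ± 0.40, adjusted p = 0.00317), and Irgm1, an immunity-related GTPase, was at 17.1, 19.8 and 49.2 CPM in NZO/HlLtJ against 15.2, 16.6 and 19.8 CPM in C57BL/6J (0.73 ± 0.19, adjusted p = 0.0059); both ranges overlapped. Without NZO/HlLtJ male replicate 3, 15 interferon genes were called higher, and without male replicates 2 and 3 only 9. Gbp2 and Irgm1 did not pass in females (adjusted p = 0.129 and 0.495), and without male replicates 2 and 3 their adjusted p over both sexes was 0.00817 and 0.0367. The interferon-stimulated response element, searched as GAAA, any 2 bases and GAAA on both strands, occurred in 16 of 33 promoter windows of the list (48.5%) and in 2.98% of all RefSeq promoter windows of 250 bases before the start. Promoters were found for 30 of the 41 genes, and windows with the element belonged to 9 of the 14 higher genes with a promoter. The reference sequence, which is that of C57BL/6J, is shown for the 2 higher genes with a match and the lowest p, with overlapping matches joined and in capitals. Gbp2 lies at chr3:142620413-142620662 on the plus strand and Irgm1 at chr11:48871421-48871670 on the minus strand (GRCm38).
Gbp2: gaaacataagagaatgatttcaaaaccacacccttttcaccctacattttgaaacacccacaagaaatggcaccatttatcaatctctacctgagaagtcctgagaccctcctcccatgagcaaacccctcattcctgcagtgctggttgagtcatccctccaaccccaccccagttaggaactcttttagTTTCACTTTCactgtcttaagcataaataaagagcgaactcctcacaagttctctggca
Irgm1: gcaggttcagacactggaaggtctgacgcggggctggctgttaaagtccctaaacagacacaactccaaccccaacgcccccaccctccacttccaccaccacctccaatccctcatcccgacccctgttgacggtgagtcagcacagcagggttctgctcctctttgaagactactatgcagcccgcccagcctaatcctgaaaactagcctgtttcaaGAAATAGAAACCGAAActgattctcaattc

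Genes of antigen presentation moved in both directions. The class I gene H2-K1, which differs in sequence between the MHC haplotypes of inbred strains, was at 46.6, 52.5 and 124 CPM in NZO/HlLtJ against 276, 306 and 341 CPM in C57BL/6J (-2.11 ± 0.16, adjusted p = 5.19e-08), and B2m, the light chain shared by all class I molecules, was higher, at 84.1, 116 and 283 CPM in NZO/HlLtJ against 47.9, 66.2 and 83.4 CPM in C57BL/6J (1.31 ± 0.25, adjusted p = 9.57e-04). The immunoproteasome subunit Psmb8 and the peptide transporter subunit Tap2 had log2 fold changes of 1.01 ± 0.15, adjusted p = 4.63e-05 and 0.61 ± 0.073, adjusted p = 6.28e-06. Across 18 class I and immunoproteasome genes, 6 were higher and 3 lower, against 21% and 19.1% of all tested genes. Counts of MHC genes depend on whether strain variants were allowed for in counting, which the sources used here do not give. The B cell receptor subunit gene Cd79a was at 0.287, 0.486 and 0.651 CPM in NZO/HlLtJ against 3.19, 4.58 and 5.84 CPM in C57BL/6J (-3.27 ± 0.20, adjusted p = 2.35e-09), while the T cell adhesion gene Cd2 was higher (2.23 ± 0.27, adjusted p = 8.19e-06). The whole lymphocyte and plasma cell list summed to at most 36.2 CPM in any library.

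Of 13 complement genes, 7 were higher and the others did not pass, with a median of 0.977. Over all tested genes 40.1% were called, split into 21% higher and 19.1% lower. Cd59a, which blocks the membrane attack complex, was at 35.1, 38.9 and 51.2 CPM in NZO/HlLtJ against 7.75, 9.64 and 11.9 CPM in C57BL/6J (2.08 ± 0.11, adjusted p = 3.20e-10), and C2, a protease of the classical pathway, was at 10.1, 11 and 20.3 CPM in NZO/HlLtJ against 2.71, 3.48 and 3.96 CPM in C57BL/6J (1.90 ± 0.15, adjusted p = 6.48e-08). Neither overlapped. Without NZO/HlLtJ male replicates 2 and 3, 5 complement genes were called higher and 1 lower. Of 22 macrophage genes, 2 passed the test, both higher, while without NZO/HlLtJ male replicates 2 and 3 the counts were 1 higher and 10 lower. The 2 were Fcer1g, the common gamma chain of Fc receptors (1.15 ± 0.19, adjusted p = 1.32e-04), and the sialic acid binding receptor Siglec1 (2.10 ± 0.65, adjusted p = 0.0188), which was no longer called without NZO/HlLtJ male replicates 2 and 3.

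Cell cycle genes were higher in NZO/HlLtJ for 22 of 35, and the others did not pass, with a median of 0.788. Over all tested genes 40.1% were called, with 21% higher. E2f1, a transcription factor of the G1 to S transition, was at 18.6, 22.2 and 30.1 CPM in NZO/HlLtJ against 8.54, 10 and 11.3 CPM in C57BL/6J (1.17 ± 0.093, adjusted p = 6.50e-08), and Rrm2, a subunit of ribonucleotide reductase, was at 4.39, 5.87 and 11.1 CPM in NZO/HlLtJ against 2.85, 3.12 and 3.5 CPM in C57BL/6J (1.09 ± 0.16, adjusted p = 4.39e-05). Both were free of overlap. Mcm5, a subunit of the replicative helicase, had a log2 fold change of 1.04 ± 0.18, adjusted p = 2.24e-04. Without NZO/HlLtJ male replicate 3 the list counted 17 higher and 3 lower, and without male replicates 2 and 3 it counted 13 and 3. An E2F site, searched as TTTGGCGC or TTTCCCGC on both strands, occurred in 3 of 31 promoter windows of the list (9.68%) and in 1.3% of all windows, and Mcm5 was the 1 higher gene that held it. Proliferation genes are used by endothelial and immune cells as well as by beta cells, and the cell type behind these levels was not tested.

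Of 31 genes of the unfolded protein response, which folds and clears proteins in the endoplasmic reticulum, 13 were higher and the others did not pass, with a median of 0.287. Over all tested genes 40.1% were called, split into 21% higher and 19.1% lower. The list count was 9 without NZO/HlLtJ male replicates 2 and 3. Taken by sex, 15 were higher in males. Fewer were without these libraries, where a lone NZO/HlLtJ male remained and calls in males over all genes fell too. In females 0 passed with edgeR, where 6 had an unadjusted p under 0.05 and DESeq2 called 2. The interaction called 1 of the 31. Creld2, a secreted chaperone, was at 63.3, 156 and 328 CPM in NZO/HlLtJ against 48.3, 62.1 and 108 CPM in C57BL/6J (1.26 ± 0.25, adjusted p = 0.00117), and Dnajc3, a co-chaperone that restrains the kinase PERK, was at 407, 672 and 974 CPM in NZO/HlLtJ against 328, 434 and 555 CPM in C57BL/6J (0.63 ± 0.15, adjusted p = 0.00323). The ranges of both genes overlapped, as did those of all 31 members, while 13.6% of all tested genes had no overlap. NZO/HlLtJ male replicates 2 and 3 were the highest libraries for both, and in females neither passed (adjusted p = 0.0800 and 0.205). Without these libraries the log2 fold changes were 0.97 and 0.42 (adjusted p = 0.0137 and 0.0306). The endoplasmic reticulum stress element, searched as CCAAT, any 9 bases and CCACG on both strands, was present in 9 of 28 promoter windows of the list (32.1%) and in 0.113% of all windows. Promoters were found for 27 of the 31 genes. The windows of the 2 higher genes with a match and the lowest p are shown with the element in capitals, for Creld2 at chr15:88819396-88819645 and for Dnajc3 at chr14:118937682-118937931, both on the plus strand (RefSeq sequence, GRCm38). A match of letters is a description and not a bound site.
Creld2: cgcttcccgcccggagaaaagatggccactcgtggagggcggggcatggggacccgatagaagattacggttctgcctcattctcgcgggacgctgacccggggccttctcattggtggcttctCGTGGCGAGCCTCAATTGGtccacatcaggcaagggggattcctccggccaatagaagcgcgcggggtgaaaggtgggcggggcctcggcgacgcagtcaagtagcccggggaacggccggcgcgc
Dnajc3: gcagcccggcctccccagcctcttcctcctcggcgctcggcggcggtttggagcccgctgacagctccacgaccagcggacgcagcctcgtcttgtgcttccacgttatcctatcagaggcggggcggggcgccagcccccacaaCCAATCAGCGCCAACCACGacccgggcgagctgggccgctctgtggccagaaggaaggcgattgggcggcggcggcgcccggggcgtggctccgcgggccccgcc

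Of 32 nuclear genes of oxidative phosphorylation, 25 were higher in NZO/HlLtJ and the others did not pass, with a median log2 fold change of 0.295, and 15 had no overlap between the strains. Over all tested genes 40.1% were called, with 21% higher, and every NZO/HlLtJ library lay above for 6.96%. Sdhb of complex II, Cyc1 of complex III and Atp5o of the ATP synthase had log2 fold changes of 0.35 ± 0.054, adjusted p = 7.48e-05, 0.40 ± 0.057, adjusted p = 3.57e-05 and 0.80 ± 0.12, adjusted p = 8.92e-05. Of 13 mitochondrially encoded genes, 5 passed the test, all lower, with a median of -0.267. Their total was close to the 40.1% of all genes, which split into 21% higher and 19.1% lower. The mitochondrial share of counts overlapped, at 1.7% to 3.12% in NZO/HlLtJ against 1.72% to 3.24% in C57BL/6J. The complex I subunit genes mt-Nd2 and mt-Nd3 were at 389, 579 and 717 CPM in NZO/HlLtJ against 808, 984 and 1240 CPM in C57BL/6J and at 58.3, 66.2 and 90.1 CPM in NZO/HlLtJ against 110, 121 and 168 CPM in C57BL/6J, respectively, and neither overlapped. Their log2 fold changes were -0.87 ± 0.14, adjusted p = 9.63e-05 and -0.89 ± 0.11, adjusted p = 9.30e-06. An NRF1 site, searched as GCGCA, any base and GCGC on both strands, occurred in 3 of 22 promoter windows of the nuclear list (13.6%) and in 3.74% of all windows. Only 1 of the 16 higher genes with a promoter held it. The libraries were made from polyadenylated RNA, which captures mitochondrial transcripts unevenly. Nnt (chr13:119335448-119408997) was at 69.7, 85.2 and 107 CPM in NZO/HlLtJ against 26.5, 30.7 and 36 CPM in C57BL/6J (1.49 ± 0.087, adjusted p = 1.53e-09), so transcripts were still counted in C57BL/6J despite its deletion.

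In glycolysis, 5 of 18 genes were higher and 3 lower, near the 21% and 19.1% of all tested genes, and 3 and 2 without NZO/HlLtJ male replicates 2 and 3. Gapdh, often used as a reference gene, was at 95.3, 103 and 138 CPM in NZO/HlLtJ against 40.9, 46.8 and 51.9 CPM in C57BL/6J (1.20 ± 0.08, adjusted p = 7.15e-09) without overlap. Gapdh has many processed copies in the genome, which makes its count less certain. Pdk1, a kinase that shuts pyruvate dehydrogenase, was at 9.04, 10.5 and 18.4 CPM in NZO/HlLtJ against 32.6, 36.4 and 46.5 CPM in C57BL/6J (-1.71 ± 0.13, adjusted p = 6.17e-08). Neurog3, the factor of endocrine progenitors, was lower, at 0.802, 1.1 and 1.94 CPM in NZO/HlLtJ against 2.41, 4.6 and 5.04 CPM in C57BL/6J (-1.85 ± 0.22, adjusted p = 7.13e-06). Cck, a gut hormone gene, was at 0.464, 0.712 and 21.7 CPM in NZO/HlLtJ against 0, 0.016 and 0.0586 CPM in C57BL/6J, where NZO/HlLtJ male replicate 3 gave the highest value (7.11 ± 0.97, adjusted p = 4.62e-05). Among 24 antioxidant genes, 12 were higher and 3 lower, with heme oxygenase Hmox1 higher (1.08 ± 0.13, adjusted p = 5.86e-06) and the glutathione transferases Gstm1 and Gstm2 lower (-1.25 ± 0.11, adjusted p = 3.53e-07, and -2.20 ± 0.21, adjusted p = 8.57e-07). Mgll, which releases fatty acids from monoglycerides, was at 43.7, 52.5 and 61 CPM in NZO/HlLtJ against 15.8, 19.8 and 28.7 CPM in C57BL/6J (1.30 ± 0.12, adjusted p = 2.87e-07). Of 19 circadian clock genes, 3 were higher and 7 lower, with Nr1d1 at 20, 29.4 and 42.1 CPM in NZO/HlLtJ against 45, 55.2 and 68 CPM in C57BL/6J (-0.91 ± 0.14, adjusted p = 6.98e-05). The hour of collection is not given in the labels. Of 23 imprinted genes, 2 were higher and 8 lower, with a median log2 fold change of -0.387. The total was close to the 40.1% of all genes, but those split into 21% higher and 19.1% lower. The growth factor gene Igf2 was 1 of the 2 higher members (0.92 ± 0.10, adjusted p = 2.94e-06).

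Genes of loci published for obesity or diabetes in crosses with NZO or C57BL/6J numbered 13 tested. Of these, 4 were higher and 4 lower, against 21% and 19.1% of all tested genes. Lepr, the leptin receptor, was at 10.4, 15.4 and 17.7 CPM in NZO/HlLtJ against 3.48, 5.33 and 9.88 CPM in C57BL/6J (1.28 ± 0.19, adjusted p = 5.18e-05), without overlap. Abcg1, a cholesterol exporter, and Pctp, a phosphatidylcholine carrier, had log2 fold changes of 0.45 ± 0.065, adjusted p = 4.45e-05 and -0.64 ± 0.089, adjusted p = 2.77e-05, also without overlap. Zfp69 and Tbc1d1, a zinc finger gene and a regulator of glucose transporter traffic, did not pass the test (0.32 ± 0.21, adjusted p = 0.236, and 0.12 ± 0.073, adjusted p = 0.217).

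The strain difference was then taken within each sex, in a model of the 4 groups of strain and sex. In females 3882 genes were called (20.6%; 10.4% higher and 10.3% lower) and in males 6755 (35.9%; 20.4% higher and 15.5% lower), and the strain by sex interaction, which tests the difference between both contrasts, called 779 (4.14%). Without composition factors, which are the TMM scaling, the split in females was 1878 higher and 909 lower, against 1948 and 1934 with them, and the median of all genes moved to 0.161 in females and -0.125 in males. Of the 779, 663 had a higher value in the male contrast (3.53%) and 116 a lower one (0.617%). Without NZO/HlLtJ male replicate 3 the interaction called 292 genes, without male replicates 2 and 3 it called 88, and without male replicate 1 it called 1830. Without replicates 2 and 3 a lone NZO/HlLtJ male remained, assumed to vary like the other groups. All 4 NZO/HlLtJ females came from code series 76 and 80, and male replicates 2 and 3 were the only NZO/HlLtJ libraries of series 89, so within NZO/HlLtJ sex and series overlap and only the C57BL/6J libraries cross them fully. With the series as a factor, an alternative chosen after the data were seen, the interaction called 314 genes.

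Immune genes differed between the sexes in the interaction. Of 41 interferon response genes, 33 were higher and 2 lower in NZO/HlLtJ males, 4 were higher and 5 lower in females, and 22 had a higher value in the male contrast by the interaction, or 11 without male replicates 2 and 3 and 18 with the series as a factor. Of 22 macrophage genes, 15 were higher in males, 9 were lower and 1 higher in females, and 17 were called in the interaction. Without male replicates 2 and 3 the macrophage interaction count was 0 with edgeR, with 10 at an unadjusted p under 0.05, and with the series as a factor it was 3. For the 11 class II presentation genes the count was 7, or 0 without both libraries with 8 at an unadjusted p under 0.05, and 4 with the series as a factor. For the 18 class I and immunoproteasome genes the counts were 13 and 5, and 12 with the series as a factor. In females the list medians of interferon and class I genes were -0.0825 and -0.198, and 0.0829 and 0.0114 without composition factors, so their direction in females depended on the scaling. B2m had a log2 fold change of 0.48 ± 0.13 in females and 2.23 ± 0.15 in males, with an interaction adjusted p of 6.74e-04. H2-K1 was lower in both sexes, with log2 fold changes of -2.63 ± 0.10 and -1.52 ± 0.11, with an interaction adjusted p of 0.00145. Ptprc, the pan-leukocyte phosphatase CD45, had values of -0.76 ± 0.17 in females and 1.29 ± 0.18 in males (8.47e-04 for the interaction). The summed macrophage level was 92.4 to 102 CPM in NZO/HlLtJ females and 131 to 393 CPM in NZO/HlLtJ males, against 131 to 163 CPM and 108 to 160 CPM in C57BL/6J females and males. Its part in the interaction was not tested. Without male replicates 2 and 3 the interaction adjusted p was 0.015 for B2m, 0.0249 for H2-K1 and 0.0191 for Ptprc.

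Among endocrine genes, the interaction called 3 of 9 alpha cell genes and 2 of 4 delta cell genes, all lower in the male contrast. Over all tested genes it called 4.14%, with 0.617% lower. With the code series as a factor, 2 alpha cell genes and 1 delta cell gene were called, also lower. Of 29 beta cell identity genes edgeR called 0, with 4 at an unadjusted p under 0.05 and 1 by DESeq2. Gcg had a log2 fold change of -0.48 ± 0.21 in females, which did not pass, and -1.67 ± 0.24 in males, with an interaction adjusted p of 0.0412. Sst had -0.38 ± 0.17 and -1.27 ± 0.19 (interaction adjusted p = 0.0499), and Itpr1 had -0.96 ± 0.11 and -1.98 ± 0.12 (interaction adjusted p = 0.00327). Lonrf2, a RING finger gene on none of these lists, fell in both sexes and further in males, with -1.99 ± 0.11 and -3.47 ± 0.13 (interaction adjusted p = 5.98e-04). Without male replicates 2 and 3 the interaction adjusted p was 0.0491 for Gcg, 0.433 for Sst, 0.0403 for Itpr1 and 0.0106 for Lonrf2. With the code series as a factor these were 0.0742, 0.113, 0.016 and 0.00654, so the Sst call was lost under both settings and the Gcg call under the latter. For nuclear oxidative phosphorylation the interaction called 0 genes with edgeR, 2 at an unadjusted p under 0.05 and 1 with DESeq2, while 16 were higher in females and 21 in males. With male replicates 2 and 3 left out, fewer were higher in males, but a lone NZO/HlLtJ male then remained. Calls in males over all genes fell in that setting too. Without composition factors the number higher in males was 3.

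**Figure D4:**
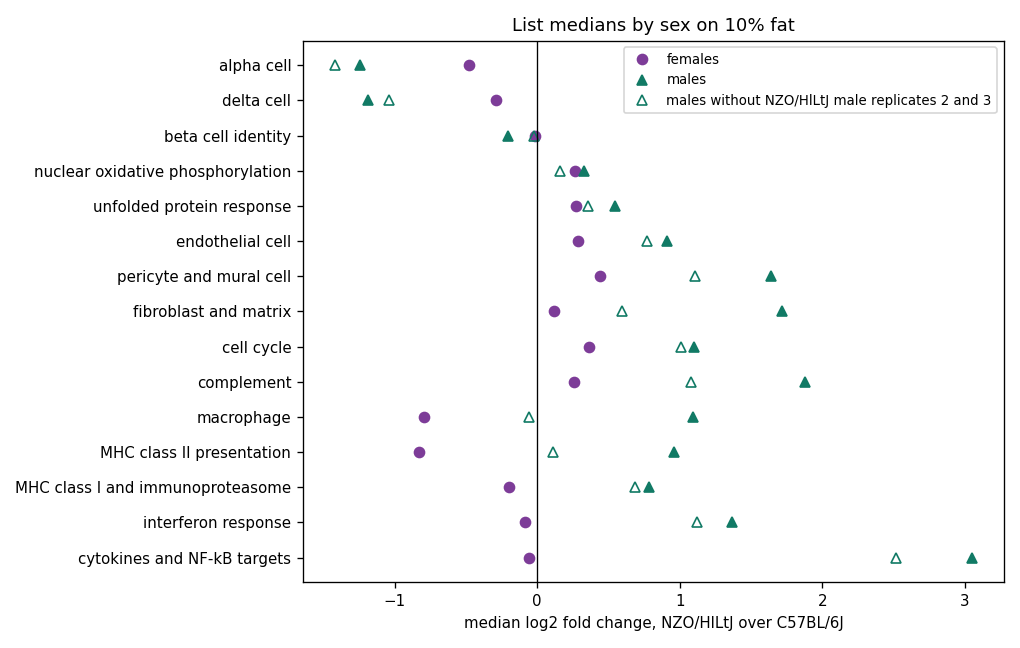
Median log2 fold change, NZO/HlLtJ over C57BL/6J, of 15 gene lists in females (purple circles), in males (filled green triangles) and in males without NZO/HlLtJ male replicates 2 and 3 (open triangles). Macrophage and class II lists lie below 0 in females and above 0 in males, and the macrophage median of males falls below 0 when those libraries are left out.

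The same strains were sequenced on 44% fat in 15 other libraries, which share no library with the comparison above. There 12271 of 19251 genes were called (63.7%), 6185 higher and 6086 lower, or 4363 and 7847 without composition factors, where the median of all genes was -0.217. In 2 of these libraries, the genes near absent in their own strain on 10% fat were raised. Their median was 1.44% of the other strain's level in C57BL/6J female replicate 2 and 2.49% in NZO/HlLtJ male replicate 3. Elsewhere it was at most 0.474%. Without both libraries, an alternative chosen after the data were seen, 11767 genes were called. Of the 7533 genes called on 10% fat, 7491 were tested on 44% fat, and 6200 of them (82.8%) were called in the same direction and 22 in the opposite one. Of 2297 tested genes with at least a 2-fold difference, 2015 (87.7%) were called in the same direction and 1 in the opposite one. Across 18618 genes tested on both diets, log2 fold changes had a Pearson correlation of 0.843 and a Spearman correlation of 0.805, given as a description since genes are not independent and both contrasts share the strains. Mx1 and Lefty1 had log2 fold changes of 5.95 ± 0.46 and -9.11 ± 0.38 on 44% fat. Cd79a, at -0.55 ± 0.70, did not pass on 44% fat (adjusted p = 0.505), which is no test of a difference between the diets. The strain by diet interaction called 1146 of 19721 genes (5.81%), with 728 higher (3.69%) and 418 lower (2.12%), or 189 and 593 without composition factors. Leaving out single libraries moved its count from 1 to 3965, so no gene is named from it.

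**Figure D5:**
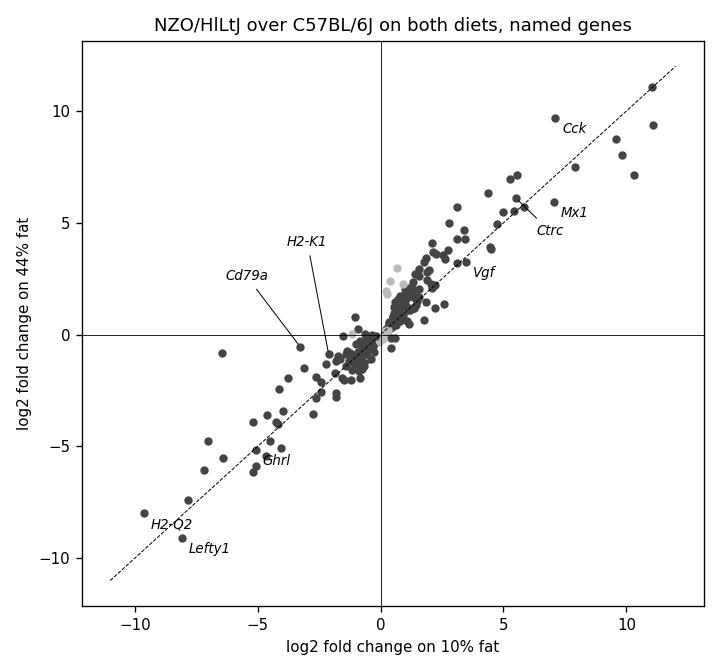
Log2 fold change, NZO/HlLtJ over C57BL/6J, on 10% fat (horizontal) and on 44% fat (vertical) for 224 genes chosen by the naming rules, dark where called on 10% fat, with a dashed line of equal values. Most points lie near the line, while Cd79a and H2-K1 lie nearer to 0 on 44% fat. Their place describes the fitted values and is no test of a difference between the diets.

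CAST/EiJ libraries on 10% fat give the levels of another strain at single genes. Their TMM factors were fitted over all 45 libraries, so their scale is not exactly that of the levels above. Mx1 was at 0.396 to 1.13 CPM in CAST/EiJ, on the side of C57BL/6J. Lefty1 was at 0.0106 to 0.149 CPM and Folr1 at 0.0809 to 0.671 CPM, on the side of NZO/HlLtJ. Tceanc2 stood at 10.3 to 14.3 CPM and Ghrl at 4.9 to 39.8 CPM, both above every NZO/HlLtJ library. Nnt, at 73 to 111 CPM, was above every C57BL/6J library.

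Called genes were spread over the genome, with 37.5% to 43.0% of tested genes called on each autosome. Windows of 2 Mb were ranked by their number of genes called with at least a 2-fold difference, and 3 of the first 5 are described. The window chr17:34000001-36000000 on chromosome 17 holds the class I and class II MHC genes. Of its 111 tested genes, 49 were called and 21 had at least a 2-fold difference, 11 higher and 10 lower. On chromosome 7, chr7:30000001-32000000 held 16 such genes, 13 of them lower, including the hepcidin gene Hamp2 and Fxyd3. On chromosome 6, chr6:128000001-130000000 held 16, of which 14 were higher, and they included the lectin-like receptor genes Clec1b and Klrc1, the latter not called without NZO/HlLtJ male replicates 2 and 3. Both belong to a cluster of similar genes and are thus uncertain.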

How the data were processed

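RNA from islets of 15 mouse samples was compared across genes. Per the labels' protocols, the KAPA mRNA HyperPrep kit was used on polyadenylated RNA, followed by paired-end sequencing. The authors deposited estimated counts per gene for 22904 genes, of which none has a count of 0 in more than 22 of the 45 libraries. The submitters' processing notes name the genome build GRCm38 and DESeq2, without its role. The aligner, the counting program and its strand setting were not given in the sources used here. Of the deposited values, 23.6% were not whole, and all were rounded before testing. Depth was 57.2 to 110 M counts in a library, and reads without molecular identifiers are not independent molecules.

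Groups came from the strain and diet labels and from the sample titles. Counts were tested with edgeR 4.0.16 in R 4.3.3 (TMM factors, filterByExpr, robust quasi-likelihood F test, Benjamini-Hochberg adjusted p under 0.05), with sex as a block. A model of 4 strain and sex groups gave the values within each sex and the interaction, and the 44% fat libraries were fitted likewise. CPM values of the 15 libraries used the same factors. CAST/EiJ levels and the percentages of the other strain's level used TMM factors fitted over all 45 libraries. No 2 of the 15 libraries were duplicates: at most 2.03% of genes had equal counts in any of the 105 pairs. The scripts were tested on simulated data. Alternatives were DESeq2 1.42.0, limma-trend (limma 3.58.1), RLE factors, library totals only, other filters, other model terms, each code series alone, and leaving out libraries.

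Named genes were the 12 highest and 12 lowest fold changes without overlap between strains and with at least 5 CPM in the higher strain, the 10 largest fold changes at 200 CPM or more, up to 4 members with the lowest p of each of 44 gene lists, hormone and published locus genes, the leading genes of the sex and diet interactions, and 5 genes of each leading window of 2 Mb. The text names part of these, and a few are not reported here. None is named for the diet interaction, because its calls did not hold when single libraries were left out. Gbp2 and Irgm1 were chosen after their values were seen. The gene lists, rules and the comparison itself were chosen with earlier results of these data known. Promoters are RefSeq sequences of GRCm38.p6.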

Additional observations from a re-analysis of the deposited data

Results flagged for a closer look

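Single libraries that lay far from the rest of their strain were looked for by Dixon's test at its 95% critical value, within the 7 NZO/HlLtJ and within the 8 C57BL/6J libraries, for each gene named in the report and for the marker sums. Chance alone flags about 1 in 20 such groups. In NZO/HlLtJ male replicate 3, the value was 100.2 CPM for Atp5o (others 54.4 to 65.3), 21.7 CPM for Cck (others 0.464 to 2.29) and 229 CPM for Cldn11 (others 19.6 to 50.6). The same library gave 30.1 CPM for E2f1 (others 18.6 to 23.3), 73.6 CPM for Fn1 (others 22.3 to 39.7) and 138 CPM for Gapdh (others 95.3 to 114). It also had 412 CPM for Gc (others 136 to 196), 58.5 CPM for Hist2h2aa2 (others 42.6 to 49.3) and 30126 CPM for Iapp (others 16034 to 21060.0). Further values there were 0.792 CPM for Mx2 (others 0.0281 to 0.278), 2.09 CPM for Myo7a (others 0.453 to 0.74) and 18.4 CPM for Pdk1 (others 9.04 to 11.3). It stood apart as well with 69.6 CPM for Postn (others 19.5 to 32.8), 2196 CPM for Scg5 (others 1284 to 1571) and 268 CPM for Slc30a8 (others 501 to 610.1). Its remaining values included 305 CPM for Vgf (others 114 to 186), 1177 CPM for the summed duct cell level (others 570.0 to 794) and 2297 CPM for the summed fibroblast and matrix level (others 684 to 1121). It further had 1055 CPM for the summed pericyte and mural cell level (others 571 to 766). In C57BL/6J female replicate 4, the value was 70.3 CPM for Ctrc (others 4.15 to 23), 35.8 CPM for Gstm2 (others 11.6 to 18.5) and 16.9 CPM for Hamp2 (others 0.481 to 6.3). The same library gave 10983 CPM for Iapp (others 14379 to 17428), 25.6 CPM for Ifi27 (others 13.8 to 18.3) and 24273 CPM for Ins1 (others 30047 to 35179). It also had 31 CPM for Lonrf2 (others 35.1 to 36.7). In NZO/HlLtJ male replicate 1, the value was 2.62 CPM for Clec1b (others 0.588 to 1.31), 173 CPM for Hba-a1 (others 19.7 to 77.3) and 43.4 CPM for Sdhb (others 47.6 to 50.4). The same library gave 692 CPM for the summed red blood cell level (others 81.3 to 302). In C57BL/6J female replicate 3, the value was 5.9 CPM for Ffar4 (others 8.21 to 9.61), 0.064 CPM for Klrc1 (others 0 to 0.0225) and 36.2 CPM for the summed lymphocyte and plasma cell level (others 6.38 to 14.3). The same library gave 546 CPM for the summed red blood cell level (others 53.2 to 222). In C57BL/6J female replicate 1, the value was 0.0564 CPM for H2-Ea-ps (others 0) and 12.2 CPM for Psmb8 (others 8.44 to 10.2). In C57BL/6J female replicate 2, the value was 4.06 CPM for Fcer1g (others 1.77 to 2.85). In NZO/HlLtJ female replicate 2, the value was 4.95 CPM for Gstm2 (others 3.31 to 3.78). In NZO/HlLtJ female replicate 1, the value was 3045 CPM for Ppy (others 1372 to 2047). In NZO/HlLtJ female replicate 3, the value was 334 CPM for Pxylp1 (others 125 to 207). In C57BL/6J male replicate 1, the value was 22 CPM for Vgf (others 10.5 to 15.9).

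The strain difference of some genes named in the report differed between the sexes by the interaction term (edgeR, adjusted p over all genes tested), which is given as the male minus the female log2 fold change. The male value was higher by 1.75 for B2m (adjusted p = 6.74e-04), 0.82 for C2 (adjusted p = 0.0483), 2.38 for Fn1 (adjusted p = 0.0176) and 2.44 for Gbp2 (adjusted p = 0.00459). It was also higher by 1.10 for H2-K1 (adjusted p = 0.00145), 1.16 for Ifi27 (adjusted p = 0.00824), 1.28 for Irgm1 (adjusted p = 0.00183) and 7.34 for Klrc1 (adjusted p = 0.0246). Further differences of this sign were 0.64 for Notch3 (adjusted p = 0.0469), 0.96 for Psmb8 (adjusted p = 0.00627), 2.06 for Ptprc (adjusted p = 8.47e-04) and 0.95 for Rrm2 (adjusted p = 0.0203). The same sign was seen with 3.65 for Siglec1 (adjusted p = 0.013). It was lower in the male contrast, with differences of -0.99 for Ffar4 (adjusted p = 0.0127), -1.19 for Gcg (adjusted p = 0.0412), -1.20 for Irx2 (adjusted p = 0.00882) and -1.02 for Itpr1 (adjusted p = 0.00327). Further negative differences were -1.48 for Lonrf2 (adjusted p = 5.98e-04) and -0.90 for Sst (adjusted p = 0.0499). All 4 C57BL/6J male libraries had a count of 0 for Klrc1, so its fitted value depends on the prior count and is no bound. Without NZO/HlLtJ male replicates 2 and 3 the interaction called 88 genes in place of 779.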

How the results depend on the processing

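The count of genes called between the strains on 10% fat stayed within 1.5 times of 7533 under other scalings, filters, tools and model terms (5055 with library totals only to 8556 with 12 groups over all 45 libraries), and from 6621 to 7777 with 1 library left out. Within code series 76, 80 and 89 alone, with 5 libraries each and no sex term, it was 2419, 1688 and 4828. In females the count ranged from 2894 to 4517 and in males from 4852 to 7910 with 1 library left out, and in males it was 2649 without NZO/HlLtJ male replicates 2 and 3. The strain by sex interaction, with 779 genes, gave 431 with library totals only, 1435 with DESeq2, 314 with the code series as a factor, 88 without male replicates 2 and 3, and 292 to 1830 with 1 library left out. On 44% fat the range with 1 library left out was 11499 to 12165. The strain by diet interaction, with 1146 genes, gave 2813 with DESeq2, 3543 with 12 groups, 5 without 2 libraries of the 44% fat diet that held transcripts of another strain, and 1 to 3965 with 1 library left out. For these changes the cause was not tested. Fits that left out libraries also had fewer samples.

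Of 224 named genes, 220 kept their side of the threshold under DESeq2, 223 under limma-trend, 207 with library totals only and 201 without male replicates 2 and 3. The log2 fold change reversed for Reg2 (0.19) in series 76 alone, for Cd4 (-0.044) and Ly6a (-0.73) in series 80 alone, and for Uap1l1 (-0.036) and H2-Ab1 (0.15) in series 89 alone. Without male replicates 2 and 3, the median of macrophage genes went from 0.274 to -0.455, of class II presentation genes from 0.197 to -0.527 and of lymphocyte genes from 1.13 to -0.0541. No paired analysis was possible because replicate numbers were given in accession order and pair nothing. Libraries left out of the males leave few samples, and p-values then rest on the pooled spread.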
